A study of Mus musculus with 8 samples.

Results

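The 9 genes described here, Myh11, Tagln, Cnn1, Smtn, Mylk, Cald1, Pdgfrb, Cspg4 and Notch3, mark the contractile and mural cells of the vessel wall, and they were taken by name from the gene column of the arrays, with every probe that carries the name. They have 15 probes, of which 13 could be tested, at least 1 for each of the 9 genes. The whole table holds 13838 genes with a tested probe. RNA came from whole hearts of male mice aged 12 weeks, 4 overexpressing PKR2 and 4 wild type (WT), with 1 heart per array of mouse oligonucleotide probes read in 1 colour. PKR2 is taken to stand for prokineticin receptor 2, the product of Prokr2 and a receptor that signals through G proteins. The promoter that drives the transgene and the mouse strain are not given in the sources used here, and p-values measure the spread between these 8 hearts.

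Mural cells wrap the endothelial tube. Smooth muscle cells surround coronary arteries and arterioles and set their width by contracting, while pericytes lie on capillaries and steady them. Contraction starts when calcium and calmodulin activate the kinase that phosphorylates myosin light chains, and the actin-bound proteins calponin, caldesmon and transgelin belong to that apparatus. Serum response factor with its partner myocardin drives many of these genes in mature smooth muscle. Platelet-derived growth factor from endothelium recruits mural cells through the receptor Pdgfrb, and Notch3 receives signals from endothelial Notch ligands and keeps arterial smooth muscle mature.

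Levels are log2 signal relative to the 75th percentile of each array, so 0 is that percentile. A level is compared between hearts for 1 probe at a time and never between probes. Between 48.3% (WT 2) and 67.1% (PKR2 1) of spots were well above background. All 16 cardiomyocyte markers were above background on all 8 arrays. The only Prokr2 probe stayed at background on all 8 arrays, so the genotype labels could not be checked with it. In RNA from whole hearts, fewer mural cells and less RNA per mural cell cannot be told apart.

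The windows upstream of genes in this group are shown because some members of it varied together from heart to heart, as described further on. The members whose windows are printed, Cnn1 and Mylk, did not vary together. Cnn1 had an r of -0.11 with Mylk A_52_P145912 and of -0.29 with Mylk A_52_P575217. Sequences are RefSeq's, build GRCm38.p6, the 250 bases before a listed transcription start, read on the strand of the gene. Windows were matched for 6 of the 9 genes (7 windows, since Cald1 has 2); Myh11, Tagln and Pdgfrb were not matched. They were searched for the CArG box, the site of serum response factor, in its strict form only. That form is CC, then 6 letters that are A or T, then GG, and it covers both strands at once. Variants of the box with any other letter were not searched, so a window without the strict form may still hold a variant. None of the 7 windows holds it, against 482 of 32851 windows in the whole table (1.47%); that says only that the letters are not in these windows. Among 18 further contractile genes, 16 had a window (21 windows), and 2 windows hold a CArG box, those of Myl9 and of 1 start of Myl6. The window of Cnn1 lies at chr9:22099003-22099252 (+ strand), that of Mylk at chr16:34784700-34784949 (+ strand), and that of Myl9, a light chain of smooth muscle myosin, at chr2:156775214-156775463 (+ strand). Capitals mark the CArG box, which starts 161 bases before the Myl9 start.
Cnn1: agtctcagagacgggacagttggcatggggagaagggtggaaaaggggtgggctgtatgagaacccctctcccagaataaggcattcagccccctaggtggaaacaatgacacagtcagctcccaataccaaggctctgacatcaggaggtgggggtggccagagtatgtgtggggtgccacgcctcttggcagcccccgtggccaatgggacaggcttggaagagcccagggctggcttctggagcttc
Mylk: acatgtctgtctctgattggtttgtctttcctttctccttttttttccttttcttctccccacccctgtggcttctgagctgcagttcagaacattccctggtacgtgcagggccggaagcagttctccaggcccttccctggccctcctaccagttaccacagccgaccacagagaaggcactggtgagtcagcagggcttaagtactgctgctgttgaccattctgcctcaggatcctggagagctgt
Myl9: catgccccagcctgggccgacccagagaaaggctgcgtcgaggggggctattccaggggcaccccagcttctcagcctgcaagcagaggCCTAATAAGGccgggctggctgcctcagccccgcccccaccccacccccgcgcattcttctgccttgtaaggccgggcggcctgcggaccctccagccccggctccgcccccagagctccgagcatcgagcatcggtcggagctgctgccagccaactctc

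Across the 9 genes, no difference between PKR2 and WT hearts exceeded the spread between hearts. Of the 13 tested probes 5 were higher and 8 lower in PKR2, with differences from -0.59 (Cnn1) to 0.19 (Smtn) and a median of -0.12 on the log2 scale. None of the 13 passed an adjusted p of 0.05 (limma, Benjamini-Hochberg over 22717 probes), where 0% of all tested probes did. None had an unadjusted limma p under 0.05, against 2.58% of all tested probes, and in none did the 2 groups fail to overlap, against 1.83%. The count of 5 higher of 13 stands beside 54.2% of all tested probes higher in PKR2, whose median difference was 0.02. The smallest adjusted p of the table was 0.0930. The smallest unadjusted p among the members was 0.18, for Cnn1, and each of the 13 adjusted p was 0.9997. The half-width of the 95% interval of a difference had a median of 0.44 over the 13 probes.

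**Figure D1:**
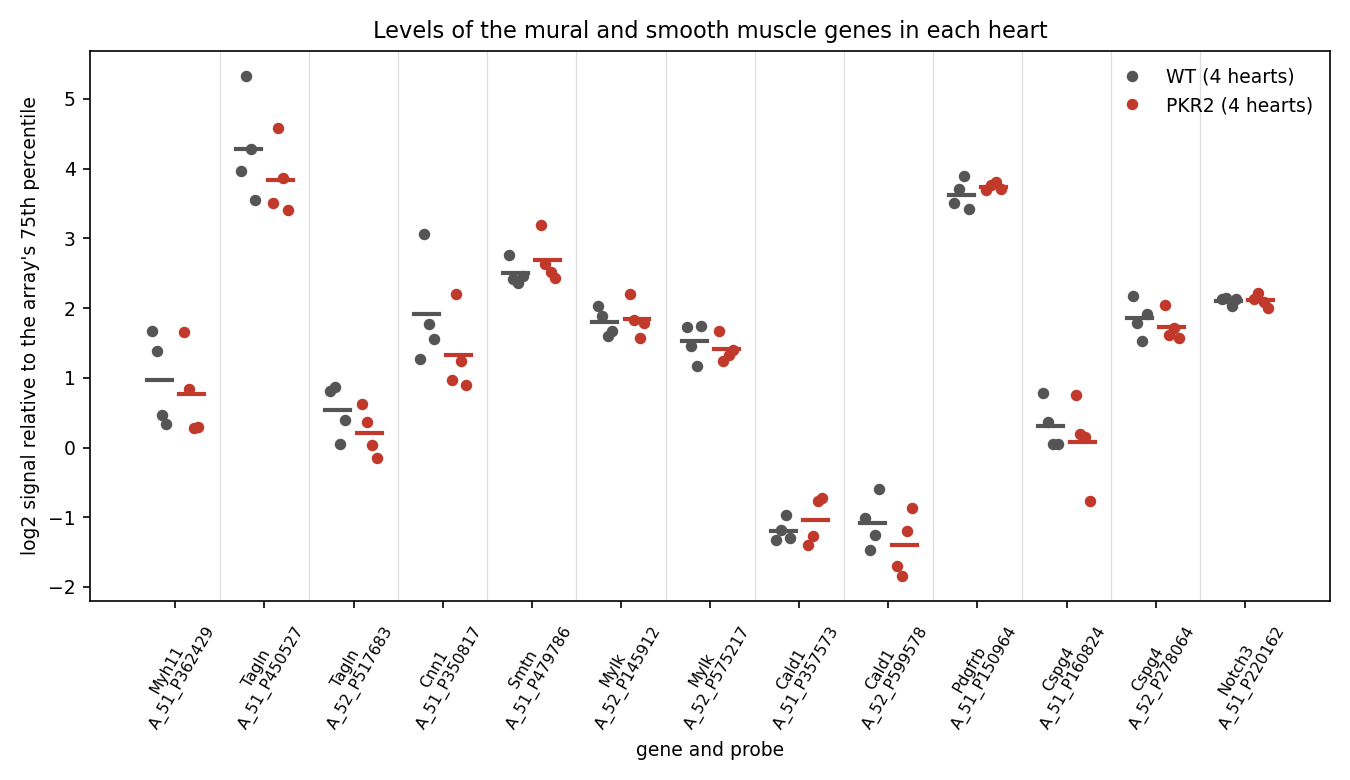
Log2 signal relative to the array's 75th percentile (y axis) for the 13 tested probes of the 9 genes (x axis); each point is 1 heart and each bar the mean of 4. The PKR2 and WT points overlap for every probe, and the range over the 8 hearts is widest for Cnn1 (2.17) and Tagln A_51_P450527 (1.92) and narrowest for Notch3 (0.21).

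Myh11, the heavy chain of smooth muscle myosin, was measured by 1 probe (A_51_P362429, mm8 chr16:14108708-14111632, - strand). Its level was 1.67, 1.38, 0.47 and 0.34 in WT 1 to WT 4 and 1.65, 0.85, 0.29 and 0.30 in PKR2 1 to PKR2 4. Each group held high hearts and low hearts, and the groups overlapped over nearly their whole range. The means were 0.96 ± 0.66 (SD, n = 4) in WT and 0.77 ± 0.65 (SD, n = 4) in PKR2, a difference of -0.19 (SE 0.38, 95% interval -1.05 to 0.67). The highest heart exceeded the lowest by 2.60-fold, and the SD within each group (0.66 and 0.65) was larger than the difference between the group means. Without WT 1 the difference was 0.04.

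Cnn1, calponin, which binds actin and slows the myosin motor in differentiated smooth muscle, had the largest difference of the 9 genes (A_51_P350817, mm8 chr9:21859016-21859075, + strand). Its level was 1.28, 3.06, 1.78 and 1.55 in the WT hearts and 0.97, 2.21, 1.24 and 0.90 in the PKR2 hearts. WT 2 stood highest and PKR2 2 next. The means were 1.92 ± 0.79 (SD, n = 4) and 1.33 ± 0.60 (SD, n = 4), a difference of -0.59 (SE 0.41, 95% interval -1.51 to 0.33, two-sided exact permutation p = 0.314). Those bounds are 0.351-fold and 1.26-fold. With slide as a fixed block the difference was -0.60 (SE 0.20, unadjusted limma p 0.0247, adjusted p 0.697), a fit in which 7.03% of all tested probes had an unadjusted p under 0.05. Without WT 2 the difference was -0.21, and without PKR2 2 it was -0.88 (unadjusted limma p 0.0488, adjusted p 0.947, where 3.94% of all tested probes had an unadjusted p under 0.05). On the arrays at position 4 of their slide, which set WT 1 alone against the 4 PKR2 hearts, it was 0.05.

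Tagln, transgelin or SM22, an actin-bundling protein of smooth muscle, was read by a pair of probes on chromosome 9 of mm8 (A_51_P450527, 45681009-45681068, and A_52_P517683, 45681828-45681887, - strand). With A_51_P450527 the level was 3.97, 5.33, 4.28 and 3.56 in the WT hearts and 3.51, 4.59, 3.87 and 3.41 in the PKR2 hearts. Again WT 2 and PKR2 2 were the highest hearts of their groups. The difference was -0.44 (SE 0.39, 95% interval -1.31 to 0.42), and without WT 2 it was -0.09. With A_52_P517683 the level was 0.82, 0.87, 0.05 and 0.39 in WT and 0.62, 0.36, 0.04 and -0.15 in PKR2. This probe did not single out PKR2 2, and its difference was -0.32 (SE 0.24, 95% interval -0.85 to 0.22). Both Tagln probes were lower in PKR2 in each of the other settings they were tested under (22 and 21 settings), with 0.728 the smallest adjusted p (limma).

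Mylk, the kinase that switches on smooth muscle contraction, was tested with 2 probes on chromosome 16 of mm8 (A_52_P145912, 34914823-34914882, and A_52_P575217, 34916500-34916559, + strand). A_52_P145912 ran from 1.61 to 2.03 in WT and from 1.57 to 2.21 in PKR2, a difference of 0.05 (SE 0.18). A_52_P575217 ran from 1.17 to 1.75 in WT and from 1.24 to 1.68 in PKR2, a difference of -0.12 (SE 0.18). The 2 probes thus lay on either side of 0, each by less than its SE. The remaining Mylk probe (A_51_P272407, transcript AK044527, 34873779-34873838) was well above background in PKR2 1 alone and was not tested.

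Smtn, smoothelin, a protein of fully contractile smooth muscle (A_51_P479786, mm8 chr11:3420834-3420893, - strand), ran from 2.36 to 2.77 in WT and from 2.43 to 3.19 in PKR2. PKR2 1 was the highest heart. The difference was 0.19 (SE 0.20, 95% interval -0.25 to 0.63), and without PKR2 1 it was 0.03. Over the 8 hearts Smtn had an r of 0.69 with the share of spots above background, which was largest in PKR2 1 (67.1%). The part of that share in the Smtn level was not tested. Cald1, caldesmon, which holds back the actin filament until calcium rises, was read by a pair of probes on chromosome 6 of mm8 (A_51_P357573, 34703991-34704050, and A_52_P599578, 34683627-34683686, + strand). A_51_P357573 gave -1.19 ± 0.16 (SD, n = 4) in WT and -1.04 ± 0.35 (SD, n = 4) in PKR2, a difference of 0.15 (SE 0.20). A_52_P599578 gave -1.09 ± 0.38 (SD, n = 4) and -1.40 ± 0.45 (SD, n = 4), a difference of -0.32 (SE 0.26). The Cald1 probes pointed opposite ways, and neither difference exceeded the spread between hearts.

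Pdgfrb, the receptor by which pericytes and smooth muscle cells sense platelet-derived growth factor (A_51_P150964, mm8 chr18:61210310-61210369, + strand), was 3.50, 3.71, 3.89 and 3.42 in the WT hearts and 3.69, 3.77, 3.81 and 3.71 in the PKR2 hearts. The 4 PKR2 hearts lay inside the range of the WT hearts. The difference was 0.11 (SE 0.15, 95% interval -0.23 to 0.46), and it was above 0 in all 22 other settings, at 0.04 to 0.50, with no adjusted p under 0.55.

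Cspg4, the proteoglycan NG2 that marks pericytes, was tested with a pair of probes on chromosome 9 of mm8 (A_51_P160824, 56696957-56697016, and A_52_P278064, 56697659-56697718, + strand). A_51_P160824 was 0.79, 0.37, 0.05 and 0.05 in WT and 0.76, 0.19, 0.16 and -0.76 in PKR2. PKR2 4 was the lowest heart, and without it the difference of -0.23 (SE 0.31) became 0.06. A_52_P278064 ran from 1.53 to 2.17 in WT and from 1.57 to 2.04 in PKR2, a difference of -0.12 (SE 0.19). The remaining Cspg4 probe (A_52_P539873, transcript AK052394, 56689538-56689597) was well above background in PKR2 1 alone and was not tested. Its signal ran from -6.04 to -5.18 in WT and from -5.17 to -4.16 in PKR2, without overlap but not well above background on 7 of 8 arrays. The two-sided exact permutation p of 0.0286 is the smallest that 70 relabelings allow. The share of such dim probes without overlap is not given here. For this Cspg4 probe and for the untested Mylk probe no fold between the groups is given.

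Notch3, the Notch receptor of arterial smooth muscle and pericytes (A_51_P220162, mm8 chr17:31849609-31849668, - strand), was the steadiest of the 9. Its level was 2.13, 2.15, 2.03 and 2.13 in the WT hearts and 2.13, 2.22, 2.09 and 2.005 in the PKR2 hearts. The highest heart exceeded the lowest by 1.16-fold. The difference was 0.00 (SE 0.14), and its 95% interval runs from 0.813-fold to 1.24-fold. The sign of so small a difference changed in 9 of the 22 other settings.

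**Figure D2:**
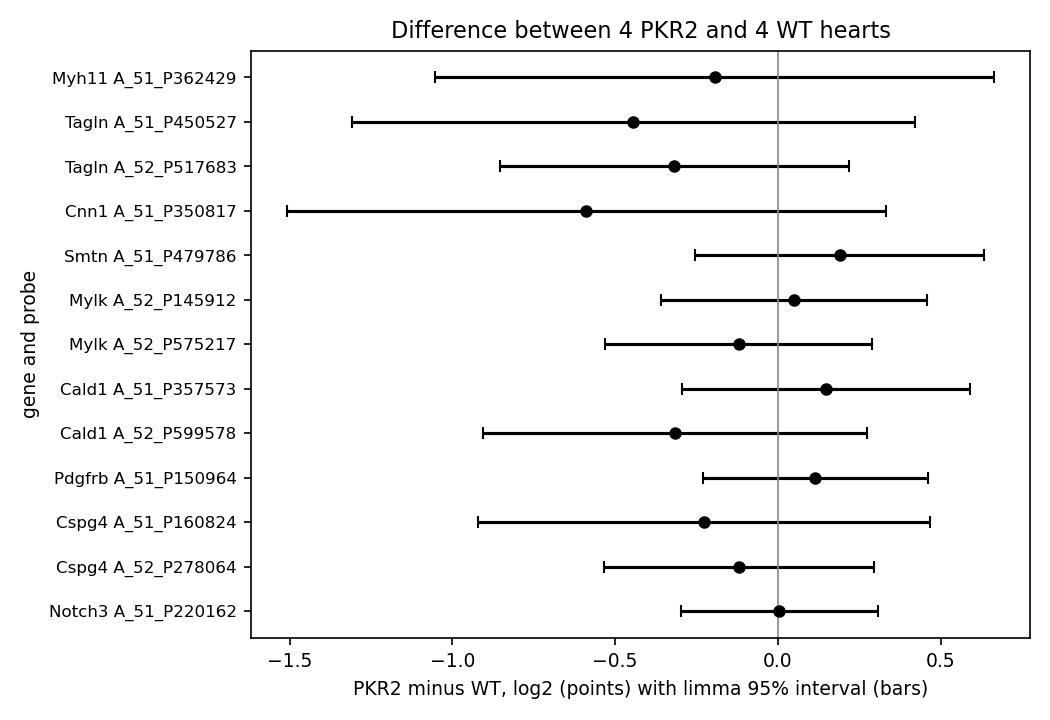
Difference of PKR2 minus WT on the log2 scale (x axis) for each tested probe (y axis), with points for the limma estimate from 4 against 4 hearts and bars for its 95% interval. Every interval includes 0; it is widest for Cnn1 (-1.51 to 0.33) and narrowest for Notch3 (-0.30 to 0.31).

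The slides are numbered 1 to 6 here, in the order of their labels. A WT and a PKR2 array shared slide 5 (WT 3 and PKR2 3, at positions 3 and 4). Slide 6 also held 1 of each (WT 4 and PKR2 4, at positions 2 and 4). Within slide 5, 7 of the 13 probes were higher in the PKR2 heart, with a median difference of 0.06. Within slide 6, 3 of 13 were, with a median of -0.14. On both slides 4 of the 13 probes were lower in the PKR2 heart: Cnn1 at -0.54 and -0.66, Tagln A_51_P450527 at -0.42 and -0.14, Tagln A_52_P517683 at -0.02 and -0.54, and Myh11 at -0.19 and -0.05. Cald1 A_51_P357573 was higher on both, at 0.19 and 0.58, and the other 8 probes had opposite signs. With slide as a fixed block, which uses only slides 5 and 6, 48.6% of all tested probes were higher in PKR2. The share of all tested probes lower on both slides is not given here, so the count of 4 has no background beside it. The other 4 arrays were each the only one of their slide here.

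The 9 genes did not vary as 1 block from heart to heart. Cnn1 and Tagln A_51_P450527 varied together over the 8 hearts, with a Pearson r of 0.95 and a Spearman rho of 0.93. Under the 6 ways of processing the signal r was 0.88 to 0.96. Without WT 2 and PKR2 2, the hearts with the highest levels, r was 0.73. The arrays share their depth: the level over the 8 hearts had an r with the share of spots above background of -0.76 for Cnn1 and -0.77 for this Tagln probe, and WT 2 and PKR2 2 have the smallest shares (48.3% and 52.8%). The part of that share in the pattern was not tested.

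A different set of hearts was high for Myh11. WT 1, PKR2 1 and WT 2 lay 0.51 to 0.80 above the Myh11 mean, and the same hearts were high for Tagln A_52_P517683 (r of 0.88 with Myh11), Cspg4 A_51_P160824 (0.82) and Mylk A_52_P145912 (0.90). With Mylk, r was 0.81 to 0.90 under the other scalings and in the authors' deposited table, but 0.56 and 0.44 with the 2 normexp background corrections. Over all 8 hearts Myh11 and Cnn1 had an r of 0.18 (rho 0.26). Without WT 1 and PKR2 1 it was 0.96, so those 2 hearts, high for Myh11 and not for Cnn1, set the pair apart. Myh11 had an r of 0.06 with the share of spots above background.

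How closely probes of the same gene went together differed between genes and with the background correction. The pair of Tagln probes had an r of 0.45, the Mylk pair 0.57, the Cald1 pair 0.30 and the Cspg4 pair 0.76. The Cald1 pair reached 0.91 with normexp background correction, and with normexp at a common array level it was 0.73 and the Cspg4 pair 0.37. Mylk A_52_P575217 and Pdgfrb ran opposite ways at an r of -0.89, but this turned to 0.54 with normexp background correction. These correlations describe 8 hearts, 4 of each genotype, measured once each.

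**Figure D3:**
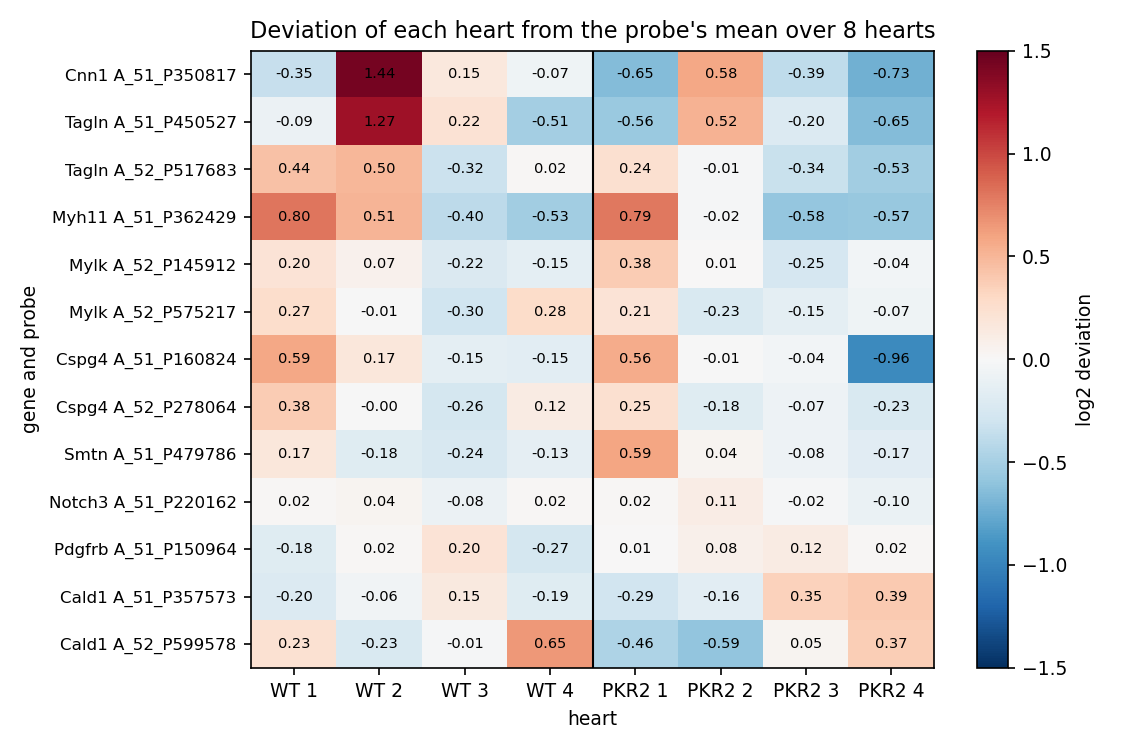
Deviation of each heart (x axis) from a probe's mean over the 8 hearts, as printed log2 values and colour, for the 13 tested probes (y axis). WT 2 and PKR2 2 are high for Cnn1 (1.44 and 0.58) and Tagln A_51_P450527 (1.27 and 0.52), while WT 1 and PKR2 1 are high for Myh11 (0.80 and 0.79).

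**Figure D4:**
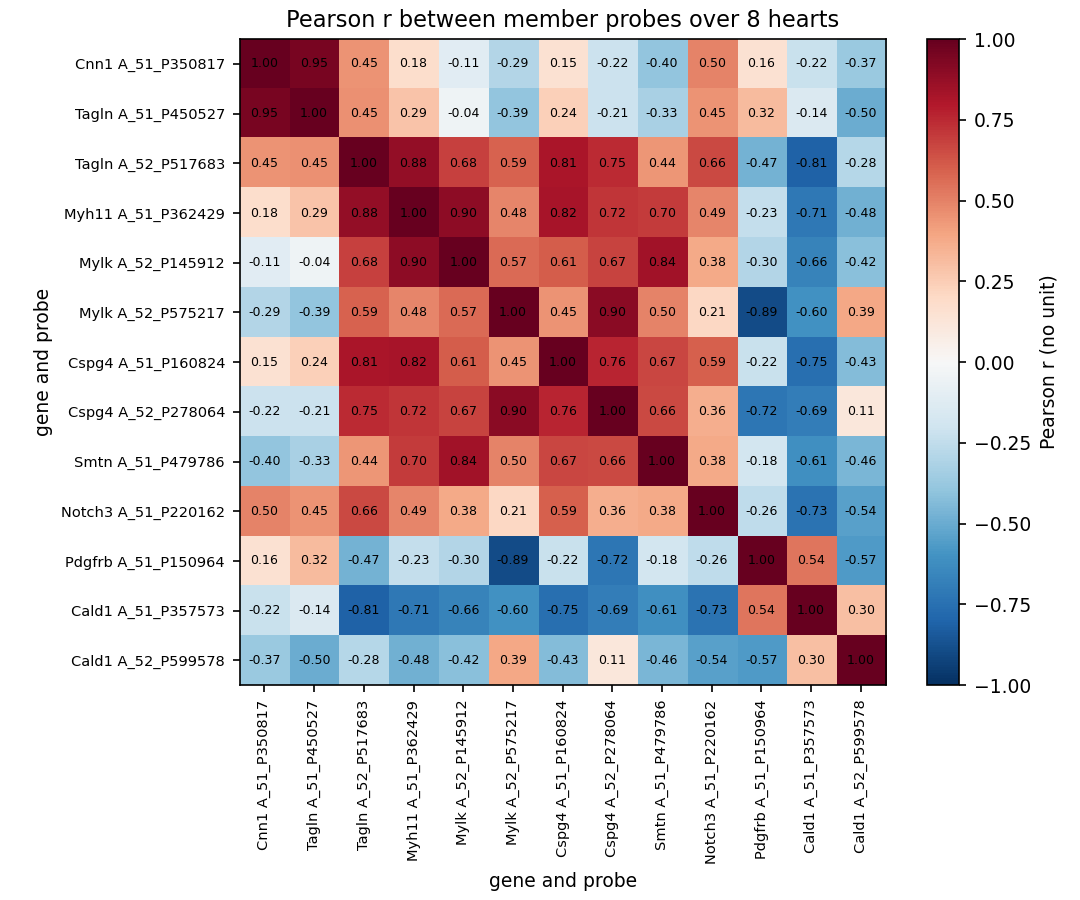
Pearson r between each pair of the 13 tested probes over the 8 hearts, printed and coloured from -1 to 1 (no unit). Cnn1 and Tagln A_51_P450527 form a pair at 0.95, the Myh11, Mylk, Cspg4, Smtn and Tagln A_52_P517683 probes are joined by positive values, and Pdgfrb and Cald1 mostly oppose them.

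Among 13829 other genes, those whose pattern over the 8 hearts was most like the mean of the 9 were Padi1, Enho, Fmn2, Lrrc46, Hexim2, Thsd4, Tekt4 and Tagln3, with r from 0.94 to 0.97. Tagln3 is a paralogue of Tagln. An r over 0.9 with that mean was found for 35 genes (0.253%). For Myh11 alone the nearest were Rras, Tepp, Paqr6, Ghsr and Hps1 (r of 0.95 to 0.96), out of 66 genes over 0.9. For Cnn1, a target chosen after its values were seen, the nearest was Lmod1 (0.96), leiomodin, an actin nucleator of smooth muscle, followed by Col18a1, Spsb2, Dgat2 and Hebp1, out of 56 genes over 0.9. Of the 18 contractile genes listed next, Itga8 (0.95), Flna (0.92) and Myl9 (0.90) also had such an r with Cnn1, as chosen after the values were seen. Over all 13829 genes the share with an r over 0.9 with Cnn1 was 0.405%. More genes ran opposite to each target, with an r under -0.9 for 122 with Cnn1, 74 with Myh11 and 45 with the mean. The first principal component of all tested probes, 36.5% of their variance, had an r of 0.78 with Cnn1, 0.75 with Tagln A_51_P450527 and -0.34 with Myh11.

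Of 18 further smooth muscle contractile genes, all tested, 6 were higher and 12 lower in PKR2, with a median of -0.10, and none passed the test. With normexp background correction 14 of 18 were higher, where 41.8% of all tested probes were. Acta2, smooth muscle actin, was 4.93, 4.99, 4.97 and 4.86 in the WT hearts and 5.35, 5.21, 5.36 and 5.31 in the PKR2 hearts. Every PKR2 heart lay above every WT heart, a pattern that 1.83% of all tested probes show in either direction. The difference was 0.36 (SE 0.13, unadjusted limma p 0.022, adjusted p 0.9997), and it was positive in all 22 other settings, at 0.30 to 0.75, with no adjusted p under 0.55. Actg2, the enteric smooth muscle actin and near-identical to Acta2, which is named after its values were seen, gave 0.36 (SE 0.14), also without overlap; whether the probes share signal with other actins was not tested. Acta2 therefore lay on the other side of 0 from Cnn1, Tagln and Myh11, and its r with Cnn1 over the hearts was -0.44.

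Aoc3, an amine oxidase of vascular smooth muscle that adipocytes also make, was 1.43, 2.36, 1.53 and 1.98 in the WT hearts and 0.02, 1.03, 1.19 and 1.29 in the PKR2 hearts. The groups did not overlap. The difference was -0.94 (SE 0.31, unadjusted limma p 0.014, adjusted p 0.9997). All 12 tested adipocyte markers, above background on all 8 arrays, were also lower in PKR2, with a median of -1.68, none of them past an adjusted p of 0.05. With a fixed slide block, and so on slides 5 and 6 alone, 3 of the 12 were higher and the median was -0.11. The mean adipocyte marker level relative to the 8-heart mean was 1.07, 1.05, -0.12 and 0.96 in the WT hearts and -1.97, -1.72, 0.43 and 0.30 in the PKR2 hearts. PKR2 1 and PKR2 2 were the low hearts, and PKR2 3 lay above WT 3 of the same slide. The Aoc3 difference was -0.44 with that mean as a covariate and -0.52 with slide as a fixed block. Mesothelial markers were lower for 10 of 11 genes, with a median of -0.29, but with slide as a fixed block 6 of 11 were higher (median 0.03) and with the adipocyte covariate 7 of 11 (median 0.05). The part of fat and of mesothelium in the Aoc3 difference was not tested.

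No gene passed the test in the lists of pathways that act on mural cells. Of 16 regulators around serum response factor and myocardin 8 were higher and 8 lower, with a median of 0.00; Rock2, a kinase of the contractile pathway, gave 0.44 (SE 0.19) and Myocd, myocardin itself, 0.44 (SE 0.28). Of 16 genes of smooth muscle calcium and tone 7 were higher and 9 lower, with a median of -0.04. Adra1d, an adrenergic receptor, gave 0.34 (SE 0.23) and Prkg1, the cGMP-dependent kinase of relaxation, 0.32 (SE 0.27). Each kept its sign in 20 of 22 other settings, with ranges of -0.25 to 0.54 for Adra1d and -0.45 to 0.68 for Prkg1. Of the 5 other PDGF ligands and receptors 1 was higher, and the ligands Pdgfb and Pdgfd gave -0.19 (SE 0.24) and -0.18 (SE 0.23). Of 25 Notch pathway genes 14 were higher, with a median of 0.01. The coactivator Maml2 gave 0.39 (SE 0.17) and the protease Adam10 0.42 (SE 0.28). Adam10 was dim, at -4.99 to -3.75 over the 8 hearts. Its difference ran from -0.80 to 0.64 in 21 other settings and kept its sign in 18. That of Maml2 ran from -0.34 to 0.57 and kept its sign in 20 of 22. The direction of these lists moved with the processing. With normexp background correction 14 of the 16 regulators were higher, and with median scaling 3 of the 16 tone genes and 9 of the 25 Notch genes were. Of all tested probes 41.8% were higher with normexp background correction and 41.0% with median scaling.

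Of 18 pericyte genes 14 were higher in PKR2, with a median of 0.09 and none past the test; over all genes taken with 1 probe each, 6850 of 13838 were higher. Rgs5, a G protein regulator that marks pericytes, gave 0.37 (SE 0.21), and Angpt1, the Tie2 ligand made by mural cells, 0.46 (SE 0.27). The count was 10 to 14 of the tested genes over the other settings. The mean level of the list relative to the 8-heart mean ran from -0.09 to -0.02 in WT and from -0.03 to 0.12 in PKR2, which overlap. Of 11 tested paralogues of the 9 genes 10 were higher with a median of 0.14, among them Myh9, non-muscle myosin, at 0.31 (SE 0.16) and Tagln2 at 0.29 (SE 0.16). On arrays at position 4 that count was 5 of 11, and none of the 11 passed the test.

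**Figure D5:**
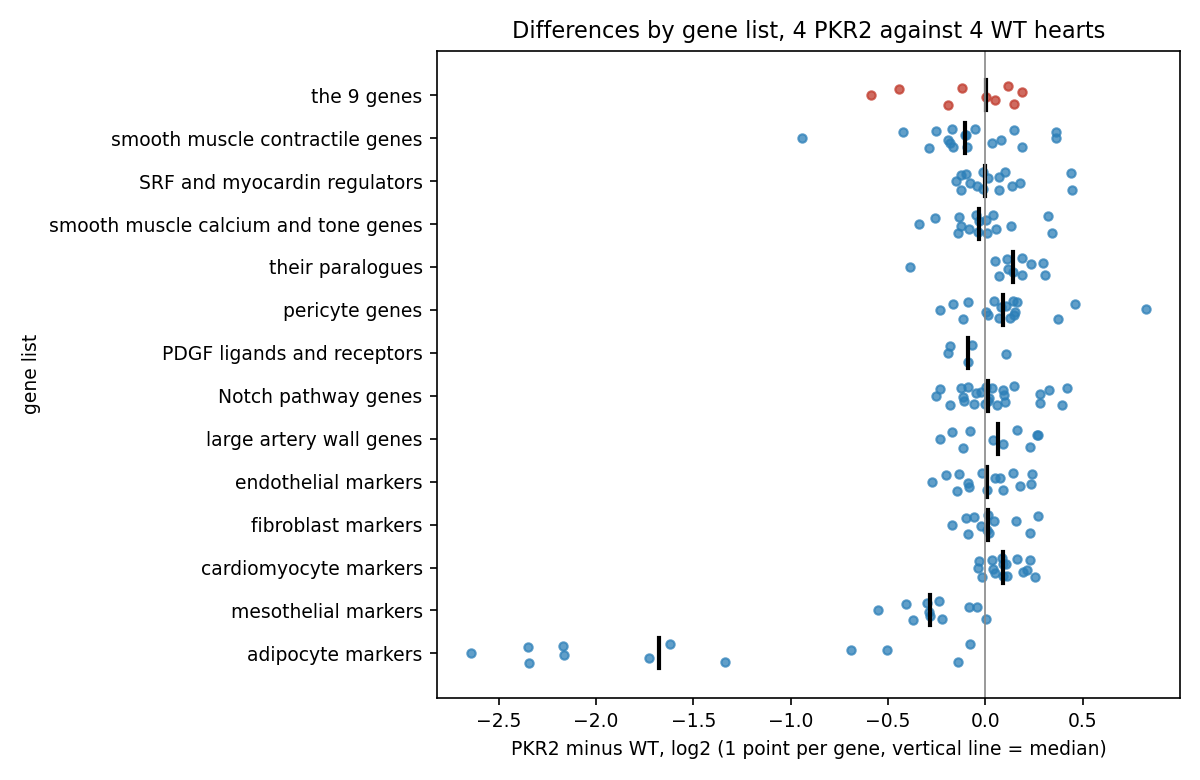
Difference of PKR2 minus WT on the log2 scale (x axis) for single genes (points, the brightest tested probe of each) in 14 gene lists (y axis), with vertical lines for the medians. The 9 genes scatter around 0 from -0.59 to 0.19, and the adipocyte markers lie lowest, with a median of -1.68 (-0.11 with slide as a fixed block).

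The other cell types of the heart give the frame for these values. Cardiomyocyte markers were higher for 13 of 16 genes (median 0.09), endothelial markers for 8 of 15 (0.01), fibroblast markers for 7 of 12 (0.01), large artery wall genes for 6 of 10 (0.06), atrial markers for 3 of 8 (-0.05), macrophage and blood markers for 5 of 10 (0.00) and Schwann and nerve markers for 1 of 6 (-0.33). None of these genes passed the test. With normexp background correction 15 of 15 endothelial, 11 of 12 fibroblast, 16 of 16 cardiomyocyte and 9 of 10 macrophage and blood markers were higher. Of all tested probes 41.8% were higher with that correction. The mean level of the atrial markers had an r of 0.80 with Cnn1 over the 8 hearts and of 0.00 with Myh11. The r with Cnn1 was 0.72 for fibroblast, 0.71 for macrophage and blood and 0.59 for Schwann and nerve markers. It was 0.31 for cardiomyocyte, 0.15 for adipocyte, 0.02 for mesothelial and -0.21 for endothelial markers, and -0.29 for large artery wall genes. The part of cell makeup in the spread of Cnn1 was not tested.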

How the data were processed

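Heart RNA of 4 WT and 4 PKR2 mice was labelled with Cy3, per the labels' protocols, and hybridised with 1 array per heart. Per the file headers, the scanner software was Agilent Feature Extraction 9.5.1.1, background was subtracted and probe positions are those of mm8. The deposited scanner columns hold linear intensity per spot, before any normalization across arrays. The table of values that the authors deposited was an alternative; it holds linear intensity with medians of 139 to 144 per array, read as uncentred, and its normalization is unknown here.

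From the processed signal, log2 was taken and the 75th percentile over non-control probes subtracted on each array. Outlier spots were dropped, saturated ones kept, and repeat spots of a probe averaged. Testing required a signal well above background on 3 or more of the 4 arrays of a group, which left 22717 of 41174 probes; probes were not merged by gene except in gene lists, where the brightest tested probe stood for a gene. Names of genes outside the 9 were updated through a RefSeq table (GRCm38.p6). The comparison used lmFit and eBayes of limma 3.58.1 (R 4.3.3) without covariates, adjusted by Benjamini-Hochberg over all tested probes at 0.05, tested on simulated data first. Exact permutation tests of single values are two-sided over 70 relabelings, with 0.0286 the smallest p they allow.

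The 9 genes and the gene lists were chosen with earlier results of these data known. The text names every probe of the 9 genes, the 2 genes of smallest p in the lists of pathways that it describes (no list had a gene past the threshold), and the genes most like the mean of the 9 (8) and Myh11 (5). Alternatives were other background corrections, scalings, filters, slide, array position, scan range, the adipocyte level, another variance model and leaving out each array. Normexp with arrays brought to a common level before the offset of 50 was chosen after seeing the data. The number of arrays limits the precision. Exon or UTR positions of probes were not analysed here.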

Additional observations from a re-analysis of the deposited data

How the results depend on the processing

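No probe of the 9 genes passed the threshold under any of the 22 alternatives, and none of the 13 tested probes did when any array was left out. The median difference of -0.12 was 0.0938 with normexp background correction (median of all probes -0.116, against 0.0186), 0.00405 with the brightest probe per gene and -0.239 to -0.0109 under the other alternatives. The count of 5 probes higher was 3 with median scaling, on arrays at position 4 and with the adipocyte level as a covariate, 7 with normexp, 6 with normexp at a common level, and 3 to 6 with each array left out (3 without WT 3 and without PKR2 1). Over the whole table the share of probes higher in PKR2 was 54.2%, but 41.8% with normexp, 40.1% with normexp at a common level and 41.0% with median scaling. The whole table had 1 probe past the threshold with normexp at a common level, with the filter for all 8 arrays, with slide as a random block, at position 4 and with a trended robust variance, and 0 to 1 with each array left out (1 without PKR2 3).

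Differences of single probes that changed sign were as follows. With normexp, Myh11 was 0.0938, Mylk A_52_P575217 0.196, Cald1 A_51_P357573 -0.291 and Cspg4 A_52_P278064 0.125; at a common level the last 3 were 0.0844, -0.0998 and 0.0135. With median scaling, Mylk A_52_P145912 was -0.0121 and Notch3 -0.0571; in the authors' table Cald1 A_51_P357573 was -0.00871. Notch3 was -0.0291 with slide as a fixed block, -0.00754 as a random block and -0.00217 with scan range as a block. At position 4, Cnn1 was 0.0527, Smtn -0.0723, Mylk A_52_P145912 -0.18 and Notch3 -0.014. With the adipocyte covariate, Smtn was -0.0257, Mylk A_52_P145912 -0.0935, Cald1 A_52_P599578 0.121 and Notch3 -0.0393. With each array left out, Myh11 ran from -0.489 to 0.0396, Mylk A_52_P145912 from -0.0706 to 0.142, Notch3 from -0.0318 to 0.0395 and Cspg4 A_51_P160824 from -0.45 to 0.0551. The cause of these changes was not tested. Before scaling, the 75th percentile of the signal ran from 40.9 (WT 2) to 769.7 (PKR2 1). Normexp added its offset of 50 to arrays not brought to a common level. The r with the share of spots above background was 0.06 (Myh11), 0.34 (Mylk A_52_P575217), -0.15 (Cald1 A_51_P357573) and 0.31 (Cspg4 A_52_P278064). With normexp these r were 0.37, 0.93, -0.65 and 0.93, and at a common level 0.13, 0.54, -0.19 and 0.67. The fixed slide block uses only slides 5 and 6. No paired analysis was possible because the labels give the mice no replicate numbers that pair them; slide and scan range were fitted as blocks.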
